A study of Mus musculus with 6 samples.

Results

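The *Cyp3a* subfamily was described here by 8 genes, *Cyp3a11*, *Cyp3a13*, *Cyp3a16*, *Cyp3a25*, *Cyp3a41a*, *Cyp3a44*, *Cyp3a57* and *Cyp3a59*, out of 20145 genes that had a named probe on the array. These genes were taken as a set and were chosen by their signals on these same arrays, where some of them were known to differ between the genotypes, so their own differences are given as a description, and no test is drawn from them. Of the 8 genes, 7 had at least 1 probe, with 10 probes in all, and *Cyp3a41a* had no probe that carried its accession. The RNA came from whole uteri at gestation day (GD) 3.5 of a natural pregnancy, counted from the plug, after the embryos had been flushed out. The control group was 3 *Sox17* f/f mice, which carry the floxed *Sox17* alleles without a recombinase. The other group was 3 *Sox17* ed/ed mice (LtfiCre/+ *Sox17* f/f), in which *Sox17* is lost from the epithelium of the uterus, from puberty on, through iCre made from the *Ltf* locus. Females of both genotypes were 8 to 10 weeks old when mated to males of proven fertility, and no group carrying the Cre without the floxed alleles was analysed here. Each mouse was read on its own 1-colour Agilent array, and *Sox17* itself had log2 signals, normalized between arrays, of 12.07 to 12.22 in the controls and 9.59 to 9.81 in the mutants.

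CYP3A enzymes are cytochrome P450 monooxygenases of the endoplasmic reticulum that oxidize steroid hormones, bile acids and a large share of drugs, and they are best known from the liver and the small intestine. They need electrons from the reductase POR and from cytochrome b5. Their genes are classical targets of the nuclear receptors PXR (*Nr1i2*) and CAR (*Nr1i3*), which bind DNA as pairs with RXR, and of hepatic factors such as HNF4A and FOXA2. *Cyp3a11* is a main form of mouse liver, and *Cyp3a13* is a form also found outside the liver.

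The stretch just upstream of the genes is shown because the genes of the subfamily fell into sequence groups there. The 250 bases before the annotated start (RefSeq, build GRCm38.p6, written 5′ to 3′ on the strand of the gene) are given for the 3 genes that were well above background in *Sox17* f/f uteri only and, for contrast, for *Cyp3a11*. Capitals mark every match, on either strand, to AGGTCA or AGTTCA (nuclear receptor motifs), TGTTTAC (forkhead), ACAAT (SOX) or GATAA (GATA), and no marked match overlaps another.
*Cyp3a25*, chr5:146009619-146009868, minus strand: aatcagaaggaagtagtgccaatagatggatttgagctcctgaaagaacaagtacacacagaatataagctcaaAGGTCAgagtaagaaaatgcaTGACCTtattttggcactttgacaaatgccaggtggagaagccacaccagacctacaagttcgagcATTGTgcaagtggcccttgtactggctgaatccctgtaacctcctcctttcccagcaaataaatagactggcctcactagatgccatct
*Cyp3a59*, chr5:146079008-146079257, plus strand: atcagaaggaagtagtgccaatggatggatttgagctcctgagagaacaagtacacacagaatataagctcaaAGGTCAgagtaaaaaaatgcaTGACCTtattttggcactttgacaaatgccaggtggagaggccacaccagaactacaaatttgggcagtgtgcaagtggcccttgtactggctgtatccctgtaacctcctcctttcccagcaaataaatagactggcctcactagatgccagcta
*Cyp3a57*, chr5:145345019-145345268, plus strand: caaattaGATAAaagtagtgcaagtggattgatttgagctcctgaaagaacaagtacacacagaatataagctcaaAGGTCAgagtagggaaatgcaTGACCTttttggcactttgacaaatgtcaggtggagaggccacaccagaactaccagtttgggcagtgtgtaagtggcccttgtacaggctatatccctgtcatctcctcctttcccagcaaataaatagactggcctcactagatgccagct
*Cyp3a11*, chr5:145879855-145880104, minus strand: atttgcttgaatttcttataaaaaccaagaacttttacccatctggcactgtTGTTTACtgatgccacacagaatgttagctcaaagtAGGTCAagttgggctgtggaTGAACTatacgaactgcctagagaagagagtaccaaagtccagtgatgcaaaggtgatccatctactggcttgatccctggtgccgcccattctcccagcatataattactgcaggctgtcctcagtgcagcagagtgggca
The windows of *Cyp3a25*, *Cyp3a57* and *Cyp3a59* were 88.9% to 94.8% identical to each other in global alignments. Those of *Cyp3a16*, *Cyp3a41a* and *Cyp3a44* were 90.9% to 94.4% identical to each other, and *Cyp3a11* shared 72.1% to 76.6% with them. Between the first group and these 4 genes the identity was only 50.5% to 54.3%, and *Cyp3a13* shared 48.6% to 55.8% with the 7 other members. All 8 members had a window in the table.

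The motifs partly followed the same groups. AGGTCA stood in 5 of the 8 windows, against 14.0% of the 32851 windows of this length in the table. *Cyp3a25*, *Cyp3a57* and *Cyp3a59* each held 2 copies, 1 in each orientation, and 1.36% of all windows held at least 2. In *Cyp3a25* the copies began 176 and 155 bases upstream of the start, in *Cyp3a57* 174 and 153, and in *Cyp3a59* 177 and 156. *Cyp3a11* and *Cyp3a44* held 1 copy each, beginning at 162 and 150 bases. TGTTTAC was found in *Cyp3a11*, *Cyp3a16*, *Cyp3a41a* and *Cyp3a44*, so in 4 of the 8 windows against 3.17% of all windows. It was not found in *Cyp3a13*, *Cyp3a25*, *Cyp3a57* or *Cyp3a59*. ACAAT was found only in *Cyp3a25* among the members, beginning 89 bases upstream, and in 27.7% of all windows. AGTTCA was in 2 members (11.8% of all windows) and GATAA in 2 (22.6%), *Cyp3a13* and *Cyp3a57*. Windows of the same sequence group are near copies of each other, so the counts over members are not independent. The motifs were picked with the array values known, and a match is a description of letters and not of a bound site.

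*Cyp3a25*, *Cyp3a57* and *Cyp3a59* were clearly present in *Sox17* f/f uteri and were not well above background in *Sox17* ed/ed uteri. Signals are given first as the deposited processed signal, in which the local background is already subtracted, and then as log2 values after quantile normalization between arrays. The lowest processed signal called well above background lay between 13.1 and 18.0 on the 6 arrays. Because a signal under that limit is not a measured level, the change is stated as a bound, the mean of the *Sox17* f/f arrays against, on each *Sox17* ed/ed array, the higher of the limit and the signal of the probe.

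*Cyp3a25* had the highest *Sox17* f/f signal and the largest bound of the subfamily. Its probe (A_55_P2169259) read 408, 262 and 311 on *Sox17* f/f arrays 1 to 3 and 4.21, 4.68 and 3.68 on *Sox17* ed/ed arrays 1 to 3. The 3 *Sox17* f/f values lay far above the 3 *Sox17* ed/ed values, which were all at the low end of the scale. The normalized log2 signal was 8.30 ± 0.39 (SD, n = 3) in *Sox17* f/f uteri, and the signal was at least 16.8-fold lower in *Sox17* ed/ed uteri.

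*Cyp3a57* followed the same pattern. Its probe (A_55_P2162880) read 254, 169 and 213 on *Sox17* f/f arrays and 3.51, 10.9 and 3.73 on *Sox17* ed/ed arrays. The groups did not overlap, and *Sox17* ed/ed array 2 gave the highest value of its group without passing the background limit. The log2 signal was 7.69 ± 0.36 (SD, n = 3) in *Sox17* f/f uteri, and the signal was at least 11.04-fold lower in *Sox17* ed/ed uteri.

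*Cyp3a59* was read by a pair of probes. The first (A_55_P2028046) gave 233, 165 and 198 on *Sox17* f/f arrays and 3.93, 4.27 and 4.10 on *Sox17* ed/ed arrays, a signal at least 10.4-fold lower. The second (A_55_P2039044) gave 167, 109 and 124 on *Sox17* f/f arrays and 3.99, 17.3 and 3.61 on *Sox17* ed/ed arrays, at least 6.96-fold lower. The probes gave the same direction, and only the second was raised on *Sox17* ed/ed array 2, just under the limit of 18.0 on that array. The second probe stood for the gene in the fit because its mean over the 6 arrays was the higher, 1 array of the dim group deciding that choice.

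Among all 26582 named probes, 264 (0.993%) had this pattern, detected on each of 3 control arrays and on no mutant array, and 62 (0.233%) had the opposite pattern. The 10 member probes held 4 of the former and 0 of the latter. The 3 genes passed the requirement of detection on 3 or more arrays through the *Sox17* f/f group alone, so they had to differ and their count adds nothing to the values above.

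**Figure D1:**
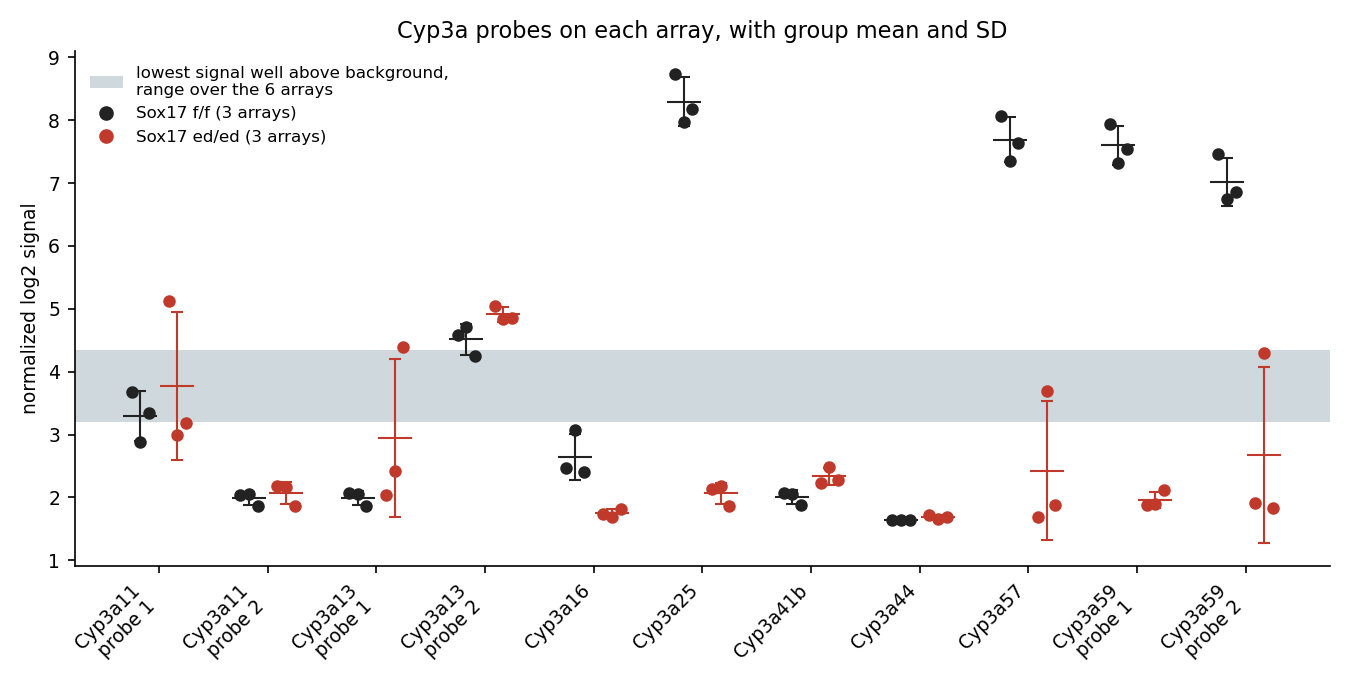
Normalized log2 signal (y axis) of each *Cyp3a* probe (x axis) on each of 3 *Sox17* f/f arrays (black points) and 3 *Sox17* ed/ed arrays (red points). Horizontal marks and bars give the group mean and SD (n = 3), and the grey band spans the lowest signal well above background on the 6 arrays. The 4 probes of *Cyp3a25*, *Cyp3a57* and *Cyp3a59* lie above the band in *Sox17* f/f uteri and not above it in *Sox17* ed/ed uteri.

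*Cyp3a13* was the only member seen in both genotypes. One of its probes (A_55_P2185826) read 21.9, 25.3 and 26.7 on *Sox17* f/f arrays and 32.7, 26.3 and 28.7 on *Sox17* ed/ed arrays, well above background on all 6. The processed signals of the groups overlapped, whereas the normalized log2 values did not, with 4.52 ± 0.24 (SD, n = 3) for *Sox17* f/f against 4.91 ± 0.11 (SD, n = 3) for *Sox17* ed/ed uteri. The log2 difference, *Sox17* ed/ed minus *Sox17* f/f, was 0.39 (standard error 0.14) at signals not far above the background limit. The other probe (A_55_P2185821) was above background on *Sox17* ed/ed array 3 only, at 20.5, and read 3.38 to 5.07 on the 5 other arrays.

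*Cyp3a11*, the liver form, was not measured reliably in either genotype. One probe (A_51_P355301) read 11.5, 6.91 and 17.4 on *Sox17* f/f arrays and 34.9, 6.35 and 8.37 on *Sox17* ed/ed arrays, and was well above background only on *Sox17* ed/ed array 1. The other (A_55_P2121225) stayed between 3.34 and 4.63 on the 6 arrays and was never above background. The groups overlapped for both probes.

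The probes of *Cyp3a16* and *Cyp3a44* were well above background on none of the 6 arrays. *Cyp3a16* (A_51_P482051) read 4.88, 7.85 and 10.6 on *Sox17* f/f arrays and 3.60 to 3.70 on *Sox17* ed/ed arrays. *Cyp3a44* (A_52_P366803) read 2.62 to 3.23 on *Sox17* f/f arrays and 3.42 to 3.59 on *Sox17* ed/ed arrays. No fold is given for either gene, since both groups lay below the limit. The probe of *Cyp3a41b*, the near copy of *Cyp3a41a* whose upstream window was 99.6% identical to it, read 3.38 to 5.17 and was not above background either. The *Cyp3a* genes are close copies of each other, the probe sequences were not used here, and which copy a probe reads was not tested.

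In the fit over all genes, 14846 genes had a probe that was detected on 3 or more of the 6 arrays, and 4 of the 8 members were among them. At the thresholds of the methods of the study, p below 0.01 before adjustment together with a fold change of 1.4 or more (0.49 on the log2 scale), 6.47% of all genes tested were lower and 6.04% higher in *Sox17* ed/ed uteri. The fitted values of 3 members, all lower, lay past these thresholds and those of *Cyp3a13* did not, a count that the choice of the members and the filter fixed and from which nothing is read. The fitted log2 differences were -6.24 (standard error 0.21) for *Cyp3a25*, -5.27 (standard error 0.54) for *Cyp3a57* and -4.35 (standard error 0.67) for *Cyp3a59*. The median over the 4 members was -4.81, beside -0.0016 over all genes tested. It was likewise fixed by the choice of the members and the filter, and nothing is read from it. The fitted differences of *Cyp3a25*, *Cyp3a57* and *Cyp3a59* run below the background limit and are larger than the bounds. With background correction by normexp they shrank to -2.50, -2.10 and -1.96, where *Cyp3a59* was represented by its first probe.

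The 3 *Sox17* f/f mice were ranked alike by the 3 genes. Relative to its mean over *Sox17* f/f arrays, *Cyp3a25* stood at 0.44, -0.32 and -0.11 (log2) on arrays 1 to 3. *Cyp3a57* stood at 0.38, -0.33 and -0.04. *Cyp3a59* stood at 0.34, -0.28 and -0.06 by its first probe and at 0.44, -0.27 and -0.16 by its second. Array 1 was the highest and array 2 the lowest for all 4 probes, an order found in 13.6% of the 14816 genes with a value on each of these arrays. Of 9 marker genes of the uterine glands, 3 had it, namely *Foxa2*, *Cxcl15* and *Wfdc3*. *Cyp3a13* had another order, with array 2 the highest.

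**Figure D2:**
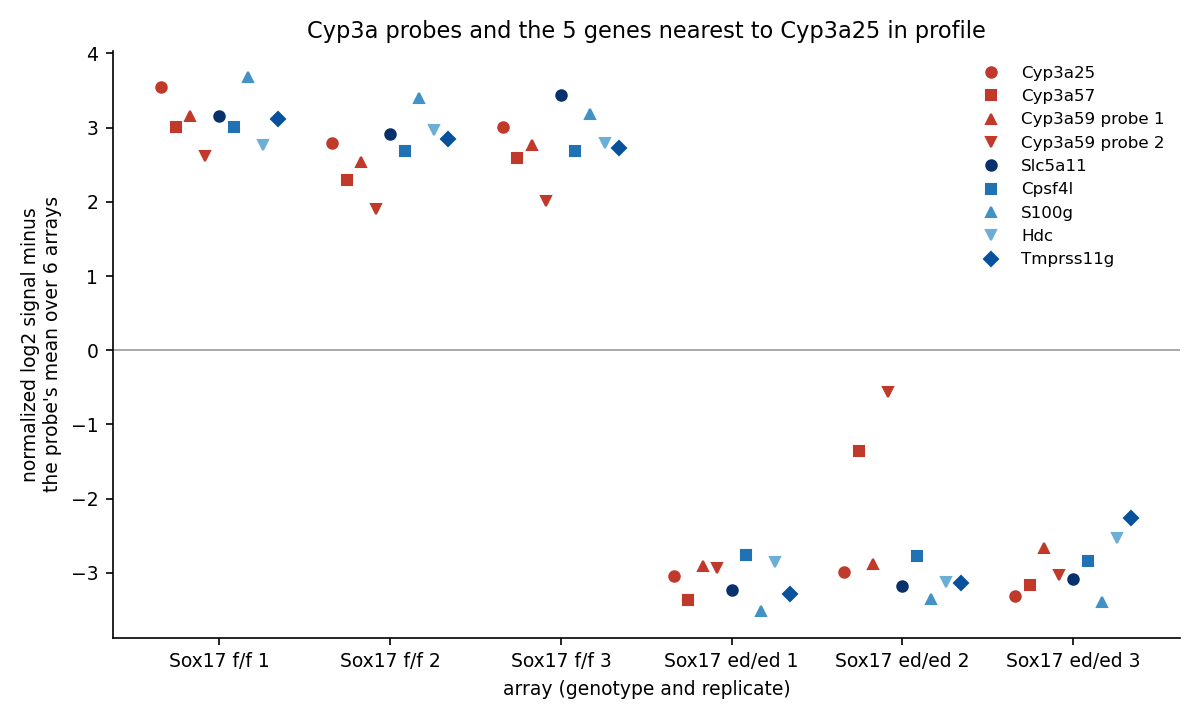
Normalized log2 signal minus the mean of the probe over 6 arrays (y axis) on each array (x axis), for the 4 probes of *Cyp3a25*, *Cyp3a57* and *Cyp3a59* (red) and for the 5 genes whose profile was nearest to that of *Cyp3a25* (blue). All probes are above 0 on *Sox17* f/f arrays and below 0 on *Sox17* ed/ed arrays, and *Cyp3a57* and the second *Cyp3a59* probe are raised on *Sox17* ed/ed array 2.

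Likeness of profile was measured over the 6 arrays as the root mean square difference of the log2 signals after the mean of each probe was subtracted. The genes outside the subfamily nearest to *Cyp3a25* were *Slc5a11*, a sodium-coupled inositol transporter (0.29), *Cpsf4l* (0.36), *S100g*, the calcium-binding protein calbindin-D9k (0.36), *Hdc*, which makes histamine (0.48), and the membrane serine protease *Tmprss11g* (0.50). On the same measure the first probe of *Cyp3a59* lay at 0.35, *Cyp3a57* at 0.76 and the second probe of *Cyp3a59* at 1.21. *Cpsf4l* and *Tmprss11g* were, like *Cyp3a25*, not well above background in *Sox17* ed/ed uteri, at least 8.64-fold and 32.8-fold lower. *Slc5a11*, *S100g* and *Hdc* stayed above background there, with log2 differences of -6.34, -6.84 and -5.68. The measure is set mainly by the difference between the genotypes and is a description of these 6 arrays. It uses the *Sox17* ed/ed signals of *Cyp3a25* below the background limit, which are not measured levels. Which genes come out nearest depends on those signals, and nothing more is read from the ranking.

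On the chromosome the members formed 2 places, both on chromosome 5. In the gene table, *Cyp3a57*, *Cyp3a16*, *Cyp3a41b*, *Cyp3a41a*, *Cyp3a44*, *Cyp3a11*, *Cyp3a25* and *Cyp3a59* followed each other in this order with no other protein-coding gene between them, and *Cyp3a13* stood alone elsewhere. The 3 genes detected in *Sox17* f/f uteri only were thus at the ends of the run, *Cyp3a57* first and *Cyp3a25* and *Cyp3a59* last. The genes between them that had a probe were not seen above background on 2 or more arrays, and *Cyp3a41a* had no probe. *Cyp3a57* and *Cyp3a59* lie on the plus strand and the others on the minus strand.

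The genes tested next to the subfamily did not pass the thresholds. Of the 5 protein-coding genes on each side of the run and of *Cyp3a13*, 20 in all, 17 had a probe and 13 were tested, with 0 past the thresholds in either direction (limma). Over all genes tested 6.47% passed as lower and 6.04% as higher, so with 13 genes nothing is read from the count of 0. At an unadjusted p under 0.05 there were 2, *Zfp655* and *Zkscan14*, and the share of all genes at that cut-off was not counted. Next to the run the log2 differences lay between -0.29 for *Zfp655* (adjusted p = 0.0651) and 0.24 for *Zkscan14* (adjusted p = 0.0684), both zinc finger genes. Around *Cyp3a13* they reached 0.78 for *Azgp1* (standard error 0.39, limma adjusted p = 0.214). Without the filter on low signal 1 of the 17 neighbours with a probe passed, *Pilrb2*, next to *Cyp3a13*.

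**Figure D3:**
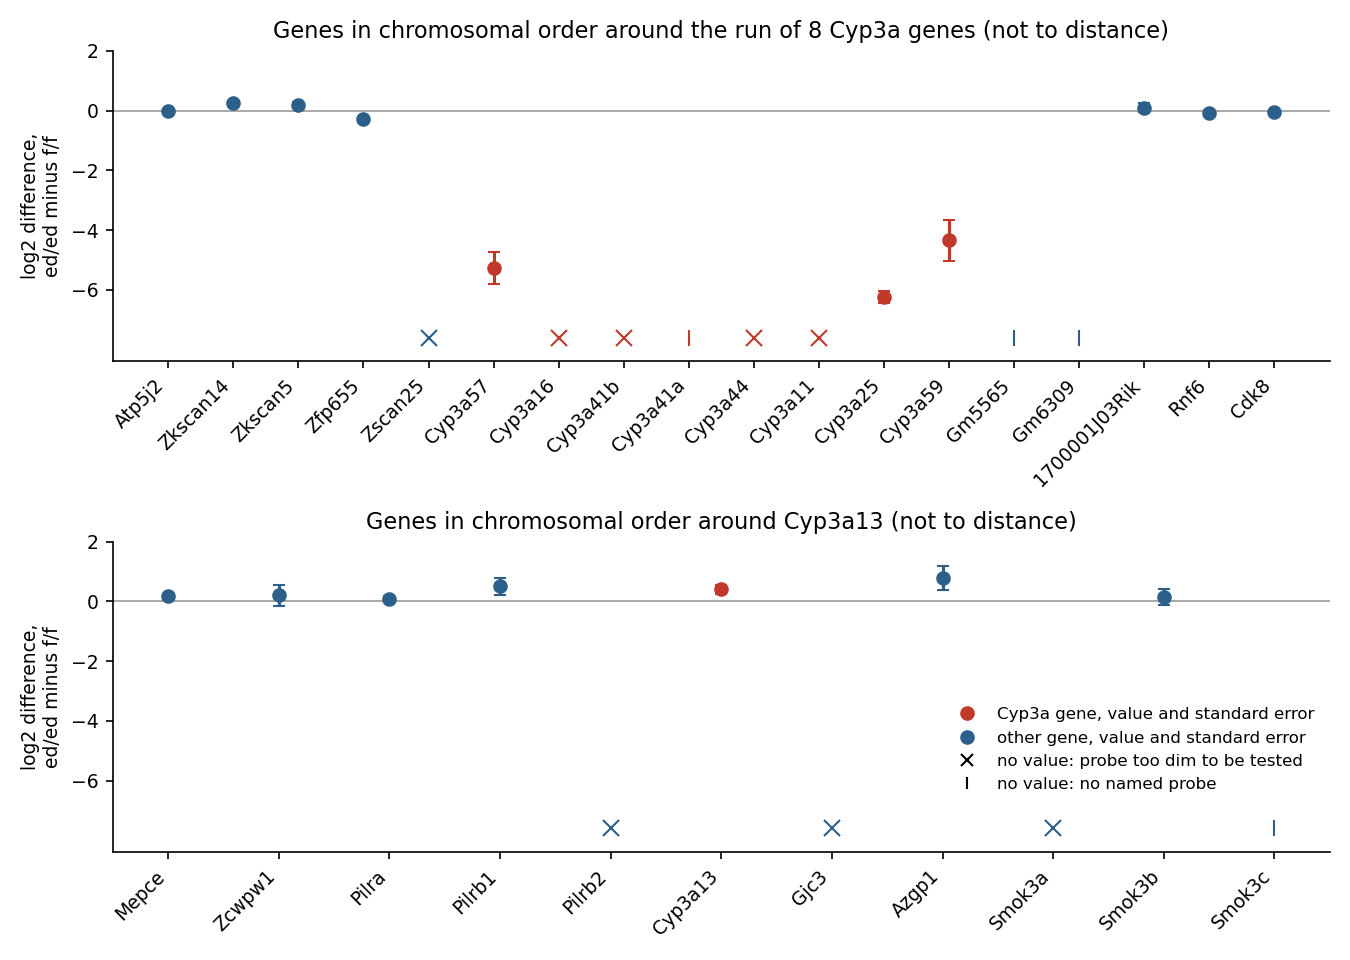
Log2 difference, *Sox17* ed/ed minus *Sox17* f/f, with its standard error (y axis) for genes in chromosomal order (x axis, not to distance) around the run of 8 *Cyp3a* genes and around *Cyp3a13*. Red marks *Cyp3a* genes and blue their neighbours, and crosses and bars at the bottom stand for genes with no value. *Cyp3a57*, *Cyp3a25* and *Cyp3a59* lie between -6.24 and -4.35, and the tested neighbours between -0.29 and 0.78.

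Of the receptors and factors known to control *Cyp3a* genes, the main receptors did not pass the test or were too dim to be tested. *Nr1i2*, which encodes PXR, read 25.8, 6.30 and 27.3 on *Sox17* f/f arrays and 3.55 to 4.14 on *Sox17* ed/ed arrays. It was above background on 2 control arrays alone, and so was not tested. *Nr1i3*, which encodes CAR, had a log2 difference of -0.51 (95% interval -1.23 to 0.20, limma adjusted p = 0.279). *Vdr*, the vitamin D receptor, had a difference of 0.05 (95% interval -0.79 to 0.89, limma adjusted p = 0.939). *Hnf4a* was above background on 1 *Sox17* f/f array only, at 36.6.

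Of the 28 genes of this list 19 were tested, 5 fell and 1 rose in *Sox17* ed/ed uteri, with a median log2 difference of -0.11. Over all genes tested 6.47% passed as lower and 6.04% as higher. *Foxa2*, the forkhead factor of the uterine glands, read 1910, 1369 and 1478 on *Sox17* f/f arrays and 56.4, 50.9 and 104 on *Sox17* ed/ed arrays, with no overlap. Its log2 difference was -4.51 (standard error 0.29, limma adjusted p = 0.000224). The C/EBP factor *Cebpd* fell by 1.20 on the log2 scale (limma adjusted p = 0.000298). *Cebpb*, another factor of that family, fell by 0.996 (limma adjusted p = 0.00053), and the aryl hydrocarbon receptor *Ahr* fell by 0.90 (limma adjusted p = 0.000906). The coactivator *Ppargc1a* rose by 1.13 (limma adjusted p = 0.0359).

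The partners that microsomal P450 enzymes need were present in both genotypes, with all 11 tested. The electron donor *Por* had a log2 difference of 0.25 (95% interval 0.03 to 0.48, limma adjusted p = 0.115), and *Cyb5a* one of -0.06 (limma adjusted p = 0.596). *Cyb5b*, a cytochrome b5 of mitochondria, rose by 0.96 (limma adjusted p = 0.00155). The cytochrome b5 reductase *Cyb5r3* fell by 0.59 on the log2 scale and the heme oxygenase *Hmox1* by 0.74 (limma adjusted p = 0.00341 and 0.0338). *Hmox1* no longer passed the thresholds without *Sox17* ed/ed array 1, 2 or 3, left out in turn, or with the mean of its probes. No other gene of this list passed, and its median was -0.06. Over all genes tested 6.47% passed as lower and 6.04% as higher.

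Other targets of PXR and CAR moved in both directions. Of 29 genes 18 were tested, 5 rose and 2 fell, with a median log2 difference of 0.17. Over all genes tested 6.04% passed as higher and 6.47% as lower. The aldehyde dehydrogenases *Aldh1a1* and *Aldh1a7* rose by 3.97 and 2.72 (limma adjusted p = 1.92e-05 and 0.000981). *Aldh1a1* read 743 to 995 on *Sox17* f/f arrays and 10633 to 14013 on *Sox17* ed/ed arrays, with no overlap. The export pump *Abcc3*, the epoxide hydrolase *Ephx1* and the carboxylesterase *Ces2c* rose by 1.15, 1.07 and 0.54 (limma adjusted p = 0.000164, 0.000316 and 0.00653). The glutathione transferase *Gsta2* fell by 1.90 on the log2 scale and *Thrsp*, a regulator of lipid synthesis, by 1.30 (limma adjusted p = 0.0011 and 0.0255). *Cyp2b10*, the classical CAR target, was above background on no array.

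Some steroid conversion enzymes passed the thresholds in each direction. Of 27 genes of the list 19 were tested, 3 fell and 2 rose, and the median log2 difference was -0.02. Over all genes tested 6.47% passed as lower and 6.04% as higher. *Akr1c18*, which inactivates progesterone, read 206, 118 and 175 on *Sox17* f/f arrays and 12.2, 7.10 and 10.2 on *Sox17* ed/ed arrays, where it was not well above background. It was at least 8.58-fold lower there, and since it entered the fit through the *Sox17* f/f arrays alone it had to differ, so its call is no test. The steroid reductase *Srd5a1* fell by 1.45 on the log2 scale (limma adjusted p = 0.00248), and *Hsd17b11* rose by 0.59 (limma adjusted p = 0.00625). *Cyp7b1* fell by 0.50 and *Hsd11b2* rose by 0.49 (limma adjusted p = 0.029 and 0.0303). These last 2 genes no longer passed, and 3 genes did, without *Sox17* f/f array 1, *Sox17* f/f array 3 or *Sox17* ed/ed array 3.

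**Figure D4:**
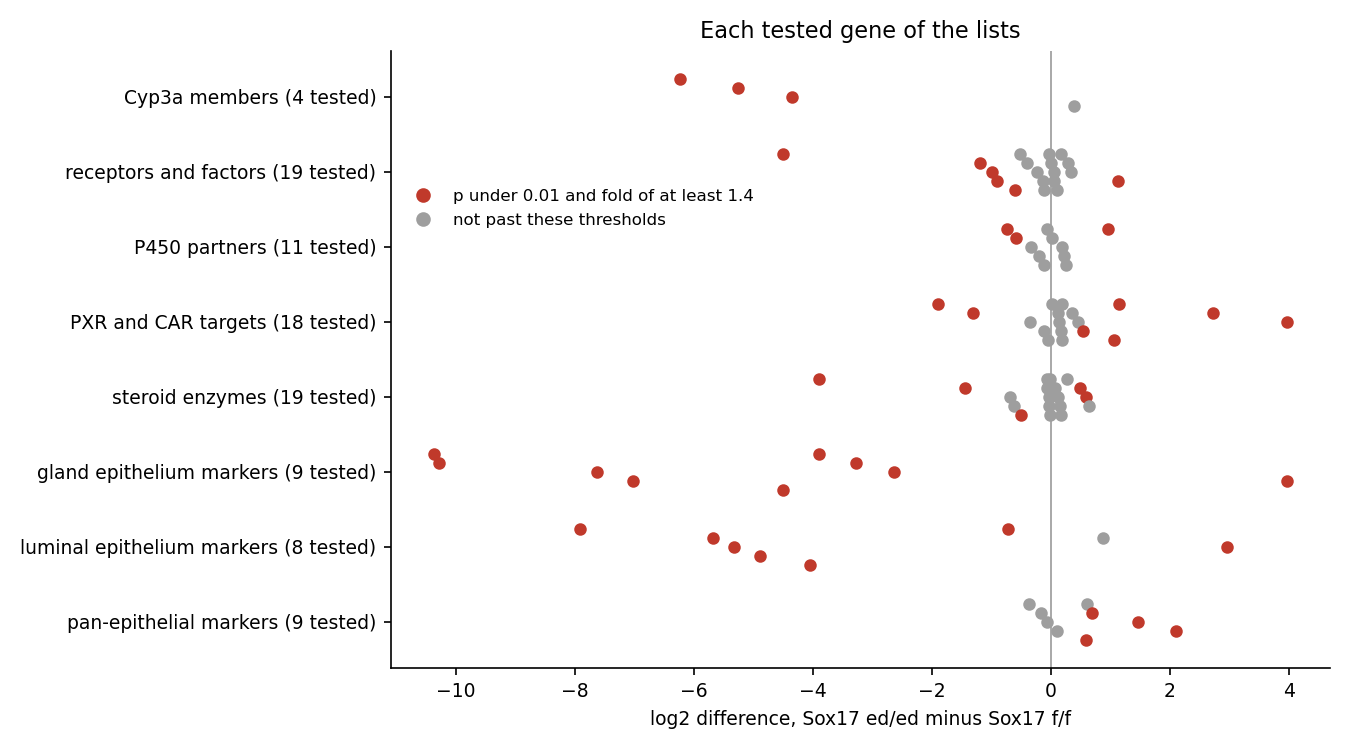
Log2 difference, *Sox17* ed/ed minus *Sox17* f/f (x axis), of each tested gene of the lists (y axis), with vertical offsets only to separate points. Red points passed p below 0.01 with a fold of at least 1.4 (log2 0.49), grey points did not. The *Cyp3a* members lie at -6.24, -5.27, -4.35 and 0.39, and gland markers extend from -10.37 to 3.97.

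Markers of the epithelium moved with the *Cyp3a* genes. Of 9 uterine gland markers 8 fell and 1, *Aldh1a1*, rose, and the summed normalized signal of the list was 35635 to 56347 on *Sox17* f/f arrays and 11787 to 14522 on *Sox17* ed/ed arrays. *Prss29*, *Ttr* and *Lif* were above background on none of the *Sox17* ed/ed arrays. Of 8 luminal markers 6 fell and 1 rose (summed signal 37982 to 44716 and 6137 to 7211), and *Calb1*, *Areg* and *Acod1* were above background on none of the *Sox17* ed/ed arrays. These 6 genes entered the fit through *Sox17* f/f arrays alone and had to differ. Over all genes tested 6.47% passed as lower and 6.04% as higher. Of 9 pan-epithelial markers 0 fell and 4 rose (36974 to 39271 and 46857 to 58708), with *Epcam* at 0.10 (limma adjusted p = 0.534). In whole uteri, fewer cells of a type and less RNA per cell cannot be told apart, and the part of these changes in the *Cyp3a* values was not tested.

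Many markers of the tissues in which *Cyp3a* genes are best known were too dim to be tested. Above background on none of the 6 arrays were 5 of 13 hepatocyte and 4 of 11 enterocyte markers. *Alb* and *Apoa1*, which define hepatocytes, were above background on none of the 6 arrays. Of 13 hepatocyte markers 5 were tested and 2 fell, *Serpina1a*, a protease inhibitor, and *Hpx*, which binds heme, by 3.26 and 2.05 on the log2 scale (limma adjusted p = 0.000369 and 0.00283). *Apoa2*, *Apob* and *Tat* were tested too and did not pass. Over all genes tested 6.47% passed as lower and 6.04% as higher. The summed signal of the tested hepatocyte markers was 4213 to 6923 on *Sox17* f/f arrays and 1150 to 1471 on *Sox17* ed/ed arrays. Of 11 enterocyte markers 4 were tested, with *Vil1*, an actin-binding protein of microvilli, higher by 0.78 (limma adjusted p = 0.0094) and the glucose transporter *Slc5a1* at least 1.76-fold lower. *Slc5a1* was above background on *Sox17* f/f arrays alone, which is how it entered the fit, so its call is no test. *Lct* and *Anpep* were tested and did not pass. *Fabp2* was above background on 1 *Sox17* f/f array only, and *Alpi*, *Cdx1*, *Cdx2* and *Fabp1* on none of the arrays. The summed signal of the tested enterocyte markers was 39382 to 42922 in *Sox17* f/f and 31673 to 40344 in *Sox17* ed/ed uteri. Nearly all of it was *Anpep*, a peptidase also made outside the gut, so the sum says little of the list.

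Markers of other cell types were counted beside all genes tested, of which 6.47% passed the thresholds as lower and 6.04% as higher. The lists are short, and no stability of a cell type is read from them. Of 9 stroma and 7 tested leukocyte markers 0 passed in either direction (limma), 1 of 7 smooth muscle markers fell, and of 7 endothelial markers 1 fell and 1 rose. Without the fold threshold, at an adjusted p under 0.05, 5 of 7 endothelial markers passed (*Pecam1*, *Cdh5*, *Kdr* and *Vwf* lower, *Cldn5* higher), as did 2 of 7 smooth muscle, 2 of 9 stroma and 1 of 7 leukocyte markers. At an unadjusted p under 0.05 the counts were 5, 5, 5 and 2. The shares of all genes at these cut-offs without the fold threshold were not counted, so nothing is read from these counts. The median log2 difference was -0.32 for the endothelial and -0.29 for the smooth muscle list, beside 0.03 for stroma and -0.06 for leukocytes. Of 5 tested ovary and oviduct markers 1 passed, the oviductal glycoprotein *Ovgp1*, which fell by 2.92 on the log2 scale (limma adjusted p = 0.000421). Of 5 tested markers of stratified squamous epithelium 1 differed, the basal keratin *Krt5*, at least 5.25-fold higher and above background on *Sox17* ed/ed arrays alone, through which it entered the fit. The part of these changes in the *Cyp3a* values was not tested.

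All 6 arrays lay on 1 slide scanned once, the *Sox17* f/f arrays in line 1 and the *Sox17* ed/ed arrays in line 2, so the line and the genotype cannot be told apart. Spots well above background made up 60.7% to 65.7% of each *Sox17* f/f array and 56.8% to 59.4% of each *Sox17* ed/ed array. Leaving out 1 array at a time gave fitted log2 differences of -6.40 to -6.02 for *Cyp3a25*, -5.90 to -4.90 for *Cyp3a57* and -5.60 to -3.92 for *Cyp3a59*. For *Cyp3a59* the value farthest from 0 was that without *Sox17* ed/ed array 2, where the first probe stood for the gene.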

How the data were processed

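Whole-uterus RNA of 6 mice, 3 of each genotype, was read on Agilent G3 Mouse GE arrays in 1 colour. The deposited spot intensity used here was the processed signal, from which Feature Extraction (11.0.1.1 per the file headers, 9.1 per the labels) had subtracted the background without normalization between arrays. The deposited value table differed from the mean of this signal by at most 0.191%. Subtraction makes values near background uncertain on a log scale, so bounds are given there.

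Control spots and 169 to 302 outlier spots per array of 62976 were left out. Log2 intensities were quantile normalized, the normalization named by the study, and spots of a probe were averaged. Of 55681 probes, 26582 were named through accessions in a RefSeq gene table (GRCm38.p6, not the build of the array design, so no probe or gene spans are given; the upstream windows carry their own GRCm38.p6 positions). Probes detected well above background on 3 or more arrays were kept, and the probe with the highest mean stood for a gene. Differences were tested in R 4.3.3 with limma 3.58.1 and p-values adjusted over 14846 genes by Benjamini-Hochberg. Precision is limited by 3 arrays a group, for which the smallest p of an exact permutation test is 0.1. Tallies, alignments (match 1, mismatch -1, gap -3 to open and -1 to extend) and plots were made in Python 3.11.15 with pandas 2.3.3, numpy 2.4.6, Biopython 1.88 and matplotlib 3.10.9. The steps were tested on simulated data.

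The members and all gene lists were chosen with earlier results of these data known. Named were all *Cyp3a* genes, *Sox17*, *Foxa2*, up to 6 genes of each pathway list with an adjusted p under 0.05 and the largest differences, *Nr1i2*, *Nr1i3*, *Vdr*, *Hnf4a*, *Por*, *Alb*, *Apoa1*, *Vil1*, *Fabp2*, and the 5 nearest profiles. 1 gene of this rule is not reported here. Other genes were named after their values were seen. Alternatives were a 75th percentile shift, normexp with an offset of 50 on the median signals, no filter, all 6 arrays above background, the mean of probes, an intensity trend, the value table, a replicate block and each array left out.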

Additional observations from a re-analysis of the deposited data

How the results depend on the processing

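Of the *Cyp3a* members, 3 lay past the thresholds under each alternative tried except 2, which their choice on these arrays fixed. With probes required above background on all 6 arrays 0 passed, since *Cyp3a13* was then the only member tested, and with no filter on low signal 4 did, the added gene being *Cyp3a16*, which was above background on no array. *Cyp3a25*, *Cyp3a57* and *Cyp3a59* kept their direction wherever they were tested and were nearest 0 with normexp (-2.50, -2.10 and -1.96), which adds an offset to every signal. *Cyp3a13* stayed positive, between 0.13 and 0.49. Over all genes 1857 passed, between 1532 and 1885 under the alternatives and between 1664 and 2033 with each array left out. Steroid enzymes fell from 5 to 3 with normexp and ranged from 3 to 5 with each array left out, and the cause was not tested. The neighbours went from 0 to 1 with no filter, which adds dim probes. With the replicate number as a block 1796 genes and the same number of members (3) passed. Same-numbered arrays deviated from their group means with correlations of 0.06, -0.11 and -0.00027. These values gave no sign that the numbers pair the mice, though with 3 arrays a group they cannot exclude it. The block took the steroid enzymes to 4 and the P450 partners from 3 to 2, as did the mean of probes and leaving out any *Sox17* ed/ed array for the partners, *Hmox1* being lost. Signals near background limit *Cyp3a25*, *Cyp3a57* and *Cyp3a59* to a bound in *Sox17* ed/ed uteri.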

Other observations

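A few genes of the lists that were too dim to be tested were bright on a single *Sox17* ed/ed array, and they were named after their values were seen. *Cyp11a1*, which makes pregnenolone from cholesterol, read 690 on *Sox17* ed/ed array 3 and 3.27 to 4.33 on the 5 other arrays. *Fgb*, a fibrinogen chain made by the liver, read 1312 on *Sox17* ed/ed array 2 and 2.97 to 18.8 on the 5 others. *Sis*, an enterocyte disaccharidase, read 165 on *Sox17* ed/ed array 1 and 3.13 to 4.41 on the 5 others, and *Hsd3b6*, a steroid dehydrogenase, read 44.3 on *Sox17* ed/ed array 1 and 3.26 to 17.8 on the 5 others. *Cyp3a11* was likewise above background on *Sox17* ed/ed array 1 only and the dimmer probe of *Cyp3a13* on *Sox17* ed/ed array 3 only.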
